A study of Mus musculus with 8 samples.

Results

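Expression of 10 genes for mitotic kinases and the chromosomal passenger complex was followed in mouse lung after pneumonectomy. The genes are Aurka, Aurkb, Plk1, Plk4, Nek2, Melk, Pbk, Incenp, Birc5 and Cdca8. Each was found by its symbol in the annotation of the Affymetrix mouse array, where all 10 are among 18193 genes with a probe set of their own. Where a gene has several probe sets, that with the highest mean over the 8 arrays stands for it, and the others are given as a check. Levels are log2 RMA values, so a difference of 1 is a doubling, and levels of different probe sets cannot be set against each other.

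All animals were adult female C57BL/6 mice of 10 to 12 weeks, given ketamine and xylazine anesthesia, ampicillin, mechanical ventilation and buprenorphine as needed. In the PNY group the left lung was ligated at the hilum through a thoracotomy (left unilateral pneumonectomy). The SHAM group had the thoracotomy, with the chest held open and the left lung kept. Lungs were taken 6 hours after surgery or after 1, 3 or 7 days, and equal amounts of lung tissue of 8 mice were pooled before RNA was extracted for each array, which leaves 1 array per surgery and time point, 4 per surgery and 8 in all. The labels do not say which lobes of the SHAM animals entered the pools. The spread between animals is inside each pool and is not measured, so each SD below is that of the 4 time points.

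The arrays carried the RNA of lung. Surfactant protein gene Sftpc was between 14.65 and 14.69 on every array and the club cell gene Scgb1a1 between 14.71 and 14.82. Both lie at the top of the scale, where 14.82 is the highest value, so their evenness is no measure of equal lung content. None of 11 lung epithelial genes differed between the surgeries by the test used below. The PNY array of 1 day stood apart. Its mean level over 13 thymocyte genes was 8.04, against 6.02 to 6.42 on the other arrays, and the recombinase gene Rag1 was 9.60 there against 3.62 on the SHAM array of the same day. The calls of the 10 genes, and the range and median of their mean differences, are given below with and without it.

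Entry into mitosis and the parting of chromosomes are driven by kinases that are made shortly before division and destroyed as cells leave it, so that their transcripts are known as marks of cycling cells. AURKA and PLK1 act at the spindle poles and PLK4 starts the copying of centrioles. NEK2 parts the centrosomes, while MELK and PBK are kinases best known from dividing progenitor and tumour cells. AURKB works inside the chromosomal passenger complex, with INCENP as scaffold and survivin (BIRC5) and borealin (CDCA8) as the subunits that place it on the centromere and later at the midzone. The adult lung divides slowly, and removal of a lung is followed by growth of what remains. In whole lung RNA, more cells of a kind and more RNA per cell cannot be told apart.

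Reference sequence around the transcription start was at hand for 7 of the 10 genes, as RefSeq windows of GRCm38.p6 from 250 bases before to 50 bases after the start. These were searched on both strands for the cell cycle homology region TTTGAA and the CCAAT box (CCAAT), the pair of elements known from promoters of late cell cycle genes. Windows of 5 genes are shown, since they hold the pair, the CCAAT box alone, or neither. Each is written 5' to 3' on the strand of the gene, with both elements in capitals (ATTGG is CCAAT on the opposite strand).
Plk1 (chr7:122159185-122159484, plus strand): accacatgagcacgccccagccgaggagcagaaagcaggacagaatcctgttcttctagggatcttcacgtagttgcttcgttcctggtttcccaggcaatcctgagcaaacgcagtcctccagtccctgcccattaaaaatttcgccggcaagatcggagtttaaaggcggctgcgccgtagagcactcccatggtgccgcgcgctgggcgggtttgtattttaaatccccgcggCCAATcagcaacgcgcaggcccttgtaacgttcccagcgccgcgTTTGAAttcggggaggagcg
Aurka (chr2:172370521-172370820, minus strand): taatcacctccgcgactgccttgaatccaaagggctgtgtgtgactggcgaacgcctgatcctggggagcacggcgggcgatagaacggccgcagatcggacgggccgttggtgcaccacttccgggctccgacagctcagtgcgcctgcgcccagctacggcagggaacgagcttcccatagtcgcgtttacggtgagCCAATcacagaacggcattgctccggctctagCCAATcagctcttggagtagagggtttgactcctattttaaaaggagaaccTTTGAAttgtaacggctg
Cdca8 (chr4:124936868-124937167, minus strand): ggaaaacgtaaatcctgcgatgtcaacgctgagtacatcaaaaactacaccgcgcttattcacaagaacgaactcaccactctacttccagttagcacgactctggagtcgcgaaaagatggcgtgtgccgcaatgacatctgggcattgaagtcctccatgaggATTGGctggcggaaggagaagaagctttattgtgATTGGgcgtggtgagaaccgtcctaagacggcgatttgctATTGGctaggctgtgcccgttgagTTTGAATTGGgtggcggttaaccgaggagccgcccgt
Nek2 (chr1:191821223-191821522, plus strand): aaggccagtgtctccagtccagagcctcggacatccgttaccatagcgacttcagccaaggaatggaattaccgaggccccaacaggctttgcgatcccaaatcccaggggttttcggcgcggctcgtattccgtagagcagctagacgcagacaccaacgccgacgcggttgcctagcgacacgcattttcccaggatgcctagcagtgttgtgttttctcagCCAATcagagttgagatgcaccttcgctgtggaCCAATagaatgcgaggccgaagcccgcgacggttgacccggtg
Birc5 (chr11:117848987-117849286, plus strand): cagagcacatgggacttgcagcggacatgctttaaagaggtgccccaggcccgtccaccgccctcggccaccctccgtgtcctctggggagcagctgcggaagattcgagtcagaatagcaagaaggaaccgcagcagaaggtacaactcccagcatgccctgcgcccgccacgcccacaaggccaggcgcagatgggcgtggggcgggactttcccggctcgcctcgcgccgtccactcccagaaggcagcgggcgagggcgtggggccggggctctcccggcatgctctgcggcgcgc
In Plk1 the CCAAT box began at position -14 from the start and TTTGAA at 31. Aurka had CCAAT boxes at -51 and -19 and TTTGAA at 33. Its window lies within the span of the gene (chr2:172356190-172370886), so the start used for Aurka is not the gene's outermost 5' end. Cdca8 held 4 CCAAT boxes on the opposite strand and TTTGAA at 14, which shares a base with the last of the boxes. Nek2 had 2 CCAAT boxes and no TTTGAA, and Birc5, Plk4 and Melk had neither in this window. Of 32851 windows of the same length over all RefSeq genes, 17.9% held TTTGAA, 37.4% held CCAAT and 6.95% held both, so the letters are common, and a match is no measured site.

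Over the 4 time points, 7 of the 10 genes were higher in PNY by rank products, the test that the study's methods name. It ranks all probe sets in each of the 16 pairs of a PNY and a SHAM array. A gene is called at a permutation P under 0.001 with a mean fold change of at least 1.5. This P comes from permuting values within each array. It sets a gene's ranks against those of other probe sets and does not measure the spread between arrays. Aurka, Aurkb, Plk1, Melk, Pbk, Birc5 and Cdca8 were called, with mean folds from 1.52 (Aurkb) to 2.15 (Pbk). Plk4, Nek2 and Incenp were not, at mean folds of 1.44, 1.41 and 1.37. Over all 18193 genes the test called 0.506% higher and 0.0605% lower. None of the 10 was lower. The median of the 10 mean differences was 0.63 (log2), against 0.01 over all genes.

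**Figure D1:**
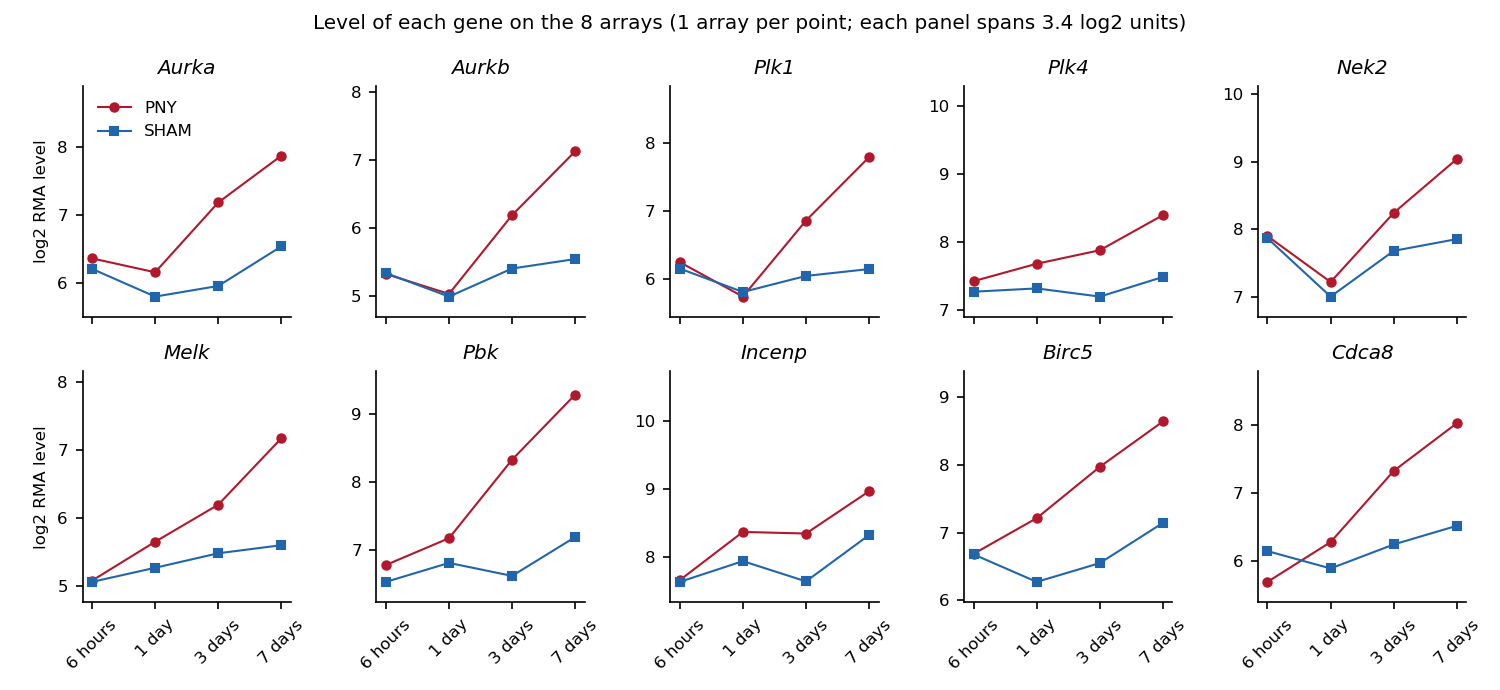
Log2 RMA level (vertical axis) of each of the 10 genes at the 4 time points (horizontal axis), 1 array per point, PNY as red circles and SHAM as blue squares; each panel has its own range of the same height. In all 10 panels the PNY points of 3 and 7 days lie above every SHAM point, while those of 6 hours lie near the SHAM point of the same time, with Cdca8 0.45 below it.

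Aurka encodes the kinase that matures centrosomes and builds the bipolar spindle (chr2:172356190-172370886, GRCm38.p6). From the first time point to the last, its level in PNY was 6.37, 6.16, 7.19 and 7.88. In SHAM it was 6.21, 5.80, 5.96 and 6.54. The PNY arrays of 3 and 7 days were thus above all SHAM arrays, while the PNY arrays of 6 hours and 1 day fell inside the SHAM range. The mean difference was 0.77 ± 0.60 (SD, n = 4), a fold of 1.70 (rank products permutation P = 9.34e-05). The other probe set of Aurka, with a mean level of only 3.18, had a difference of -0.044 ± 0.26, and the mean of both probe sets was not called.

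Aurkb (chr11:69045624-69051664) is the catalytic subunit of the passenger complex, which corrects wrong attachments of chromosomes to the spindle. Its PNY levels were 5.32, 5.03, 6.19 and 7.13 from 6 hours to 7 days, and its SHAM levels 5.34, 4.99, 5.40 and 5.54. Up to 1 day the surgeries were within 0.04 of each other. At 3 days PNY was 1.72 times SHAM and at 7 days 3.00 times. With a mean difference of 0.60 ± 0.75 it was the called gene nearest the fold threshold (permutation P = 0.000828). Its second probe set had a mean difference of 0.64 ± 0.66 and was also called.

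Plk1 (chr7:122159435-122169884) encodes the Polo kinase needed for mitotic entry, spindle assembly and cytokinesis. It has a single probe set here. PNY read 6.25, 5.74, 6.86 and 7.80, and SHAM 6.16, 5.81, 6.05 and 6.15, a SHAM range of 0.34. PNY was slightly below SHAM at 1 day, by 0.07, and 3.13 times SHAM at 7 days. This gave a mean difference of 0.62 ± 0.78 (permutation P = 0.000596).

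Plk4 (chr3:40799951-40816883), the Polo kinase that sets the number of centrioles, had the smallest range between times of the kinases in either surgery. Its PNY levels were 7.42, 7.68, 7.88 and 8.39 against 7.27, 7.31, 7.19 and 7.48 in SHAM. PNY was higher at all 4 time points, and only the PNY array of 6 hours lay inside the SHAM range. The mean difference of 0.53 ± 0.33 had a permutation P of 0.00137 and missed both thresholds of the call. Both other probe sets of Plk4 were higher in PNY at all 4 times, with mean differences of 0.37 ± 0.27 and 0.43 ± 0.34. In the latter every PNY array was above every SHAM array, which gives the smallest p that an exact permutation test of 4 against 4 arrays allows (two-sided, 0.0286).

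Nek2 (chr1:191821449-191833049) encodes the kinase that cuts the linker between centrosomes. PNY read 7.90, 7.23, 8.24 and 9.04, and SHAM 7.87, 7.01, 7.69 and 7.86. Both surgeries were lowest at 1 day, and the SHAM range of 0.86 was among the widest of the 10 genes. PNY was 1.47 times SHAM at 3 days and 2.26 times at 7 days. Nek2 had a mean difference of 0.50 ± 0.51 (permutation P = 0.00156, not called). Its 3 other probe sets had mean differences between 0.19 and 0.25. At 7 days that with the highest level was 0.99 higher in PNY, and the remaining ones 0.12 and 0.28 higher.

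Melk (chr4:44300909-44364675) encodes a kinase of the AMPK-related family whose transcript follows cell division. Its PNY levels were 5.07, 5.65, 6.19 and 7.17, and its SHAM levels 5.06, 5.26, 5.48 and 5.60. Both series were higher at each later time, with a PNY range of 2.10 against a SHAM range of 0.54. The mean difference was 0.67 ± 0.66, a fold of 1.59 (permutation P = 0.000349). Melk and Aurkb were the only ones of the 10 below the median level of all probe sets, 5.92. Among all genes 66.8% lay above it.

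Pbk (chr14:65805911-65817822), a MAP kinase kinase-like enzyme active in mitosis, had the largest difference of the 10 genes. PNY read 6.78, 7.17, 8.33 and 9.29. SHAM read 6.53, 6.81, 6.62 and 7.19. PNY was thus 3.27 times SHAM at 3 days and 4.28 times at 7 days, and at 6 hours and 1 day it was 0.25 and 0.36 higher. The mean difference was 1.11 ± 0.94, a fold of 2.15 (permutation P = 2.04e-06). Pbk was called in each of the 12 fits in which an array, or both arrays of a time, had been removed.

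Incenp (chr19:9872295-9899489), the scaffold that binds and activates AURKB, had the smallest mean difference. Its PNY levels were 7.66, 8.37, 8.35 and 8.97 and its SHAM levels 7.64, 7.94, 7.65 and 8.33. On the chosen probe sets it was the only one of the 10 in which the difference at 7 days, 0.64, was not above that at 3 days, 0.70. The PNY array of 3 days was only 0.02 above the highest SHAM array, that of 7 days. The mean difference was 0.45 ± 0.31 (permutation P = 0.00319, not called). Of its 4 other probe sets, that with the next highest level had a mean difference of 0.39 ± 0.40, and the remaining ones read 0.15, -0.057 and -0.011. The former was 0.49 higher in PNY at 3 days and 0.91 at 7 days. The probe set at 0.15 read 0.31 and 0.53 at these times, while those at -0.057 and -0.011 had lower differences at 7 days than at 3 days.

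Birc5 (chr11:117849237-117855743), which encodes the survivin subunit, was the earliest of the 10 to pass 1.5-fold. PNY read 6.69, 7.21, 7.97 and 8.64, and SHAM 6.68, 6.27, 6.55 and 7.14. At 6 hours the surgeries differed by 0.01, and at 1 day PNY was 0.94 higher. At that time the SHAM array was the lowest of the 4, and the PNY array was the one whose thymocyte genes stood apart. Differences at 3 and 7 days were 1.42 and 1.49. Birc5 had a mean difference of 0.96 ± 0.68, a fold of 1.95 (permutation P = 6.82e-06), and the call was also made without the PNY array of 1 day. Of the fits with arrays removed, it was lost only without both arrays of 3 days. The part of the thymocyte genes in the difference at 1 day was not tested.

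Cdca8 (chr4:124918465-124936917), the gene of the borealin subunit, was the only one with PNY clearly under SHAM at 6 hours. There PNY read 5.70 and SHAM 6.15, a difference of -0.45. Later PNY levels were 6.28, 7.33 and 8.03 against 5.89, 6.25 and 6.52. PNY was 2.12 times SHAM at 3 days and 2.85 times at 7 days. The mean difference was 0.63 ± 0.86 (permutation P = 0.000277). The low value at 6 hours was not shared by its other probe sets, both of which were 0.26 higher in PNY at that time. Over the 4 times these read 0.89 ± 0.67, called, and 0.57 ± 0.59, not called.

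**Figure D2:**
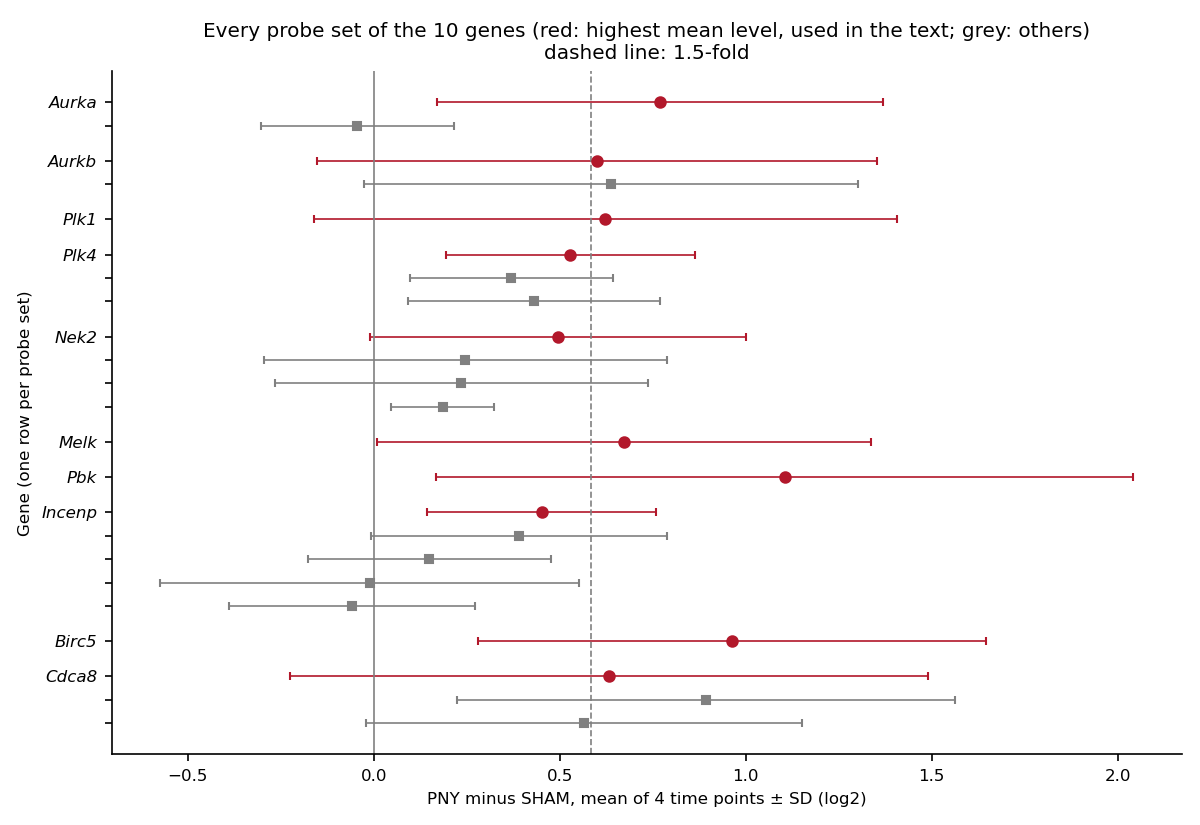
Mean PNY minus SHAM difference (log2, horizontal axis) with the SD of the 4 time points as bars, for every probe set of the 10 genes, 1 row each; red circles are the probe sets with the highest mean level and grey squares the others. The dashed line marks 1.5-fold; the second probe sets of Aurkb and Cdca8 lie past it, while that of Aurka and 2 of Incenp lie just under 0.

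These calls rested on the later arrays. Without the PNY array of 3 days, or without that of 7 days, only Pbk and Birc5 were called, and without both arrays of 3 days Pbk alone. Without the SHAM array of 6 hours 6 genes were called, with Melk lost. Leaving out that of 1 day left 4, and leaving out that of 3 or of 7 days left 5, with Aurkb and Plk1 lost each time. Without the PNY array of 1 day 8 genes were called, Nek2 among them, and without that of 6 hours 9. In the former fit the mean differences ran from 0.44 (Incenp) to 1.34 (Pbk), and that of Nek2 was 0.79 in place of 0.50. Without both arrays of 1 day they ran from 0.46 (Incenp) to 1.35 (Pbk), Nek2 read 0.59, and the 7 genes called with all arrays were called. When a percentage of false positives under 0.05 was asked in place of the permutation P, Pbk and Birc5 were called.

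The exact permutation test was run for each gene over its 8 arrays, without pairing the arrays of a time point. Its two-sided p ran from 0.0571 (Plk4 and Birc5) to 0.343 (Aurkb and Cdca8). No gene of the 10 had every PNY array above every SHAM array, as 0.857% of all genes did. PNY was higher at all 4 time points in 7 of the 10, against 9.36% of all genes. By limma, with Benjamini-Hochberg adjustment over 45037 probe sets, none of the 10 and no other probe set passed an adjusted p of 0.05. Unadjusted, 4 of the 10 had a limma p under 0.05, against 1.28% of all genes with a higher level in PNY. With the time point as a block it was 9, all but Cdca8, against 3.8% of all genes.

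The time points differed in what they held. At 6 hours none of the 10 was at least 1.5-fold higher in PNY, against 0.682% of all genes. At 1 day it was Birc5 alone, against 1.88%. At 3 days 9 of the 10 were past 1.5-fold, all but Nek2, where the share over all genes was 1.14%. At 7 days all 10 were, against 1.98%. These counts are of the chosen probe sets. With every probe set of a gene averaged, 6 of the 10 passed 1.5-fold at 3 days and 9 at 7 days. Median differences of the 10 were 0.03, 0.36, 0.80 and 1.501 in time order, while the medians over all genes lay between -0.0013 and 0.017. Each of these differences is that of 1 PNY and 1 SHAM array, with no replicate and no test.

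**Figure D3:**
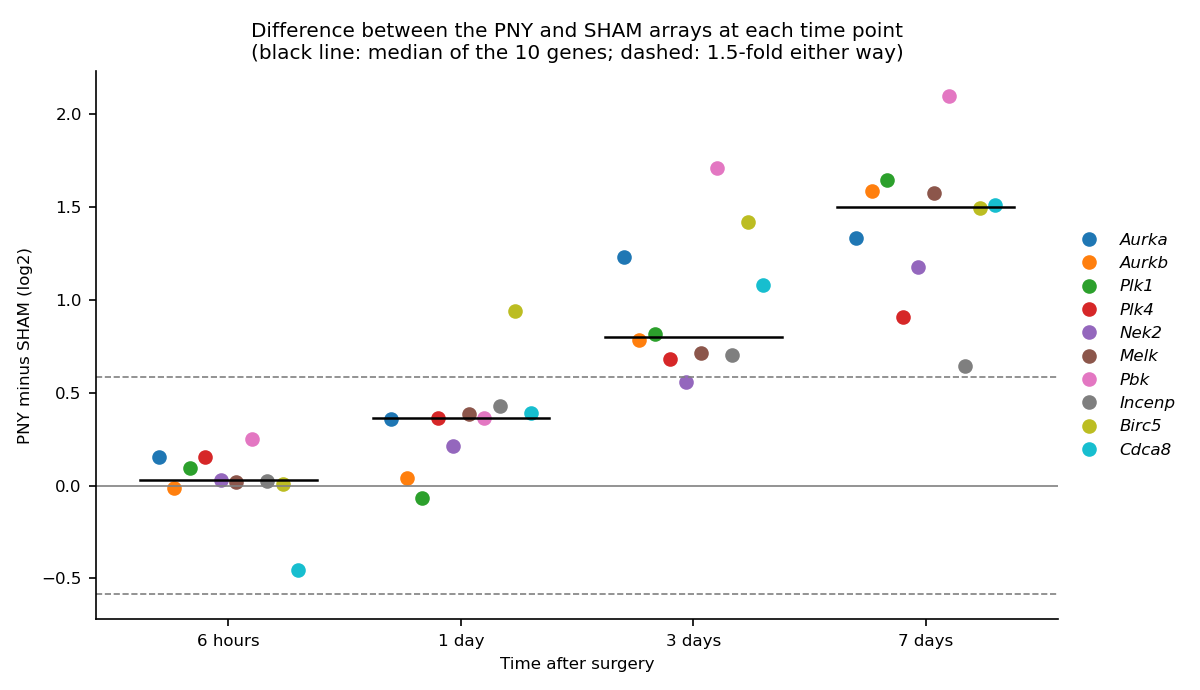
PNY minus SHAM difference (log2, vertical axis) at each of the 4 time points, 1 coloured point per gene, with the median of the 10 genes as a black line and 1.5-fold either way as dashed lines. The medians are 0.03, 0.36, 0.80 and 1.501; all 10 points are past 1.5-fold at 7 days and none at 6 hours.

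At 3 days the PNY array was above all 4 SHAM arrays in each of the 10 genes, by 0.02 (Incenp) to 1.14 (Pbk), as in 17.9% of all genes. At 7 days it was so too, by 0.64 (Incenp) to 2.10 (Pbk), as in 21.5% of all genes. The differences at 3 and 7 days were both above those at 6 hours and 1 day in all 10 genes, and in 16.4% of all genes. The contrast of the mean later difference (3 and 7 days) against the mean earlier difference (6 hours and 1 day) was tested with limma over all probe sets, and 0% of them passed an adjusted p of 0.05. The estimates for the 10 genes were all positive, from 0.45 ± 0.45 (SE) for Incenp to 1.60 ± 0.45 for Pbk. Unadjusted, 6 of the 10 had a limma p under 0.05 (Aurka, Aurkb, Plk1, Pbk, Birc5 and Cdca8), against 1.78% of all genes with an upward change. The split into earlier and later times was chosen with earlier results of these data known, so these p-values are descriptions only.

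Within PNY the level at 7 days was above that at 3 days in all 10 genes, by 0.52 (Plk4) to 0.98 (Melk), and 9 of the 10 were at least 1.5-fold higher, against 0.918% of all genes. SHAM had the same direction in all 10, with differences from 0.10 (Plk1) to 0.68 (Incenp). The SHAM difference was smaller than that of PNY in all but Incenp, which was 0.62 higher at 7 days in PNY. Of all genes, 52.9% were higher in SHAM at 7 than at 3 days. SHAM was highest at 7 days in 8 of the 10 and lowest at 1 day in 6. The shares of all genes with these extremes were not counted. The range over the 4 SHAM arrays had a median of 0.64 over the genes, and that over the PNY arrays 2.00.

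The 10 genes varied together across the arrays. Of their 45 pairs, Aurkb and Plk1 had the highest Pearson correlation over the 8 arrays, 0.99, and Nek2 and Incenp the lowest, 0.55, with a median of 0.92. These are descriptions, since the arrays share surgery and time. Among 12143 other genes above the median level, the 8 most alike to the median profile of the 10 were Nusap1, Cep55, Ckap2l, Cdc20, Ccna2, Kif20a, Ube2c and Cdk1, with r from 0.985 (Cdk1) to 0.995 (Nusap1). They were picked for this likeness, so their own difference between the surgeries is no separate result. Mki67, the classic marker of cycling cells, was 0.11, 0.24, 1.37 and 1.78 higher in PNY in time order, with a mean of 0.87 ± 0.83, and was called. Pbk had a larger difference than Mki67 at each time, and 8 of the 10, all but Pbk and Birc5, had smaller ones at both 3 and 7 days.

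Of 23 other kinases of mitosis and of mitotic entry, 3 were called higher and none lower, with a median mean difference of 0.08. Ttk, the checkpoint kinase MPS1, was 1.04 ± 0.73 higher, Cdk1, the partner of the mitotic cyclins, 0.92 ± 0.76, and Bub1, a kinetochore kinase that marks centromeres for the passenger complex, 0.60 ± 0.54. Haspin, whose mark on histone H3 recruits the complex as well, read 0.46 ± 0.45 and was not called. At 7 days 7 of the 23 were at least 1.5-fold higher.

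Of 25 cofactors, substrates and recruiters of the 10 proteins, 8 were called higher and none lower, with a median mean difference of 0.30. Tpx2, the activator of AURKA at the spindle, was 0.36, 0.18, 0.93 and 2.00 higher in PNY in time order. Prc1, the midzone bundling protein, read 0.03, 0.10, 1.07 and 1.92. Stil, the centriole protein that binds PLK4, had a mean difference of 0.74 ± 0.65, and Kif20a, the kinesin that carries the passenger complex to the midzone, 0.72 ± 0.67. At 7 days 16 of the 25 were past 1.5-fold and at 6 hours none.

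Of 10 genes that serve the destruction of these kinases, Cdc20, the mitotic activator of the anaphase-promoting complex, and Ube2c, its ubiquitin-conjugating enzyme, were called, at 0.91 ± 0.81 and 0.88 ± 0.77. Fbxo5, an inhibitor of that complex, read 0.31 ± 0.31 and the subunit gene Cdc27 0.18 ± 0.11, and neither was called. Of 23 other members of the kinase families and of the inhibitor of apoptosis family of Birc5, taken whatever their role, none was called or past 1.5-fold at any time, and their median mean difference was 0.01. The largest were Plk2 at 0.20 ± 0.13, Prkaa2 at -0.19 ± 0.23, Nek5 at -0.18 ± 0.20 and Nek8 at 0.17 ± 0.20. The list shares 7 genes with the other kinases above (Plk2, Plk3, Nek3, Nek4, Nek6, Nek7 and Nek9), none of them called, so that each has 16 of its own, of which 3 kinases and no family member were called. Without the PNY array of 1 day the calls were 3 of 23, 9 of 25, 2 of 10 and 0 of 23.

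**Figure D4:**
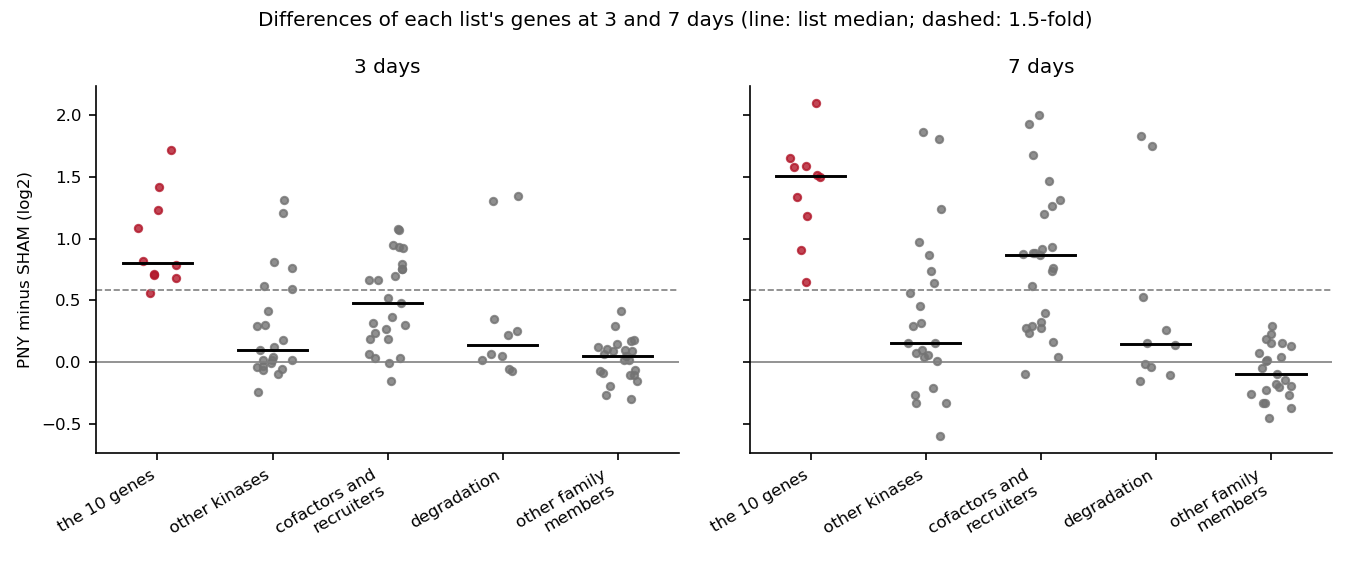
PNY minus SHAM difference (log2, vertical axis) of every measured gene of 5 lists at 3 days (left) and 7 days (right), 1 point per gene, list medians as black lines and 1.5-fold dashed. At 7 days the medians are 1.501 for the 10 genes, 0.16 for other kinases, 0.87 for cofactors and recruiters, 0.15 for degradation and -0.09 for other family members.

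Genes of other cell types were set beside these values. Thymocytes are a dividing population. At 1 day 11 of their 13 genes passed 1.5-fold upward, on the array named above, against 1.88% of all genes. The median of the 10 mitotic genes was then 0.36. At 3 and 7 days no thymocyte gene was 1.5-fold higher, and the list's medians were 0.00 and -0.34. The 10 genes were highest at 7 days in PNY, and the median of their mean differences was 0.86 without the PNY array of 1 day and 0.78 without both arrays of 1 day. Of the thymocyte genes Rag1 was called higher over the 4 times, and none without that array. Of 9 genes of B cells and plasma cells 6 were at least 1.5-fold lower in PNY at 7 days, and none was called over the 4 times. The share of all genes lower by that much at 7 days was not counted. Without the PNY array of 1 day Ighm, an immunoglobulin heavy chain gene, was called lower, at -0.77. The mean level of the B cell list in time order was 7.53, 8.37, 7.83 and 7.72 in PNY. In SHAM it was 7.60, 7.76, 8.38 and 8.45. Macrophage, fibroblast, mesothelial, endothelial and epithelial lists had no call, and of 6 erythroid genes Alas2, for the heme enzyme of red cell precursors, was called lower. Which cells carried the mitotic transcripts was not tested.

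**Figure D5:**
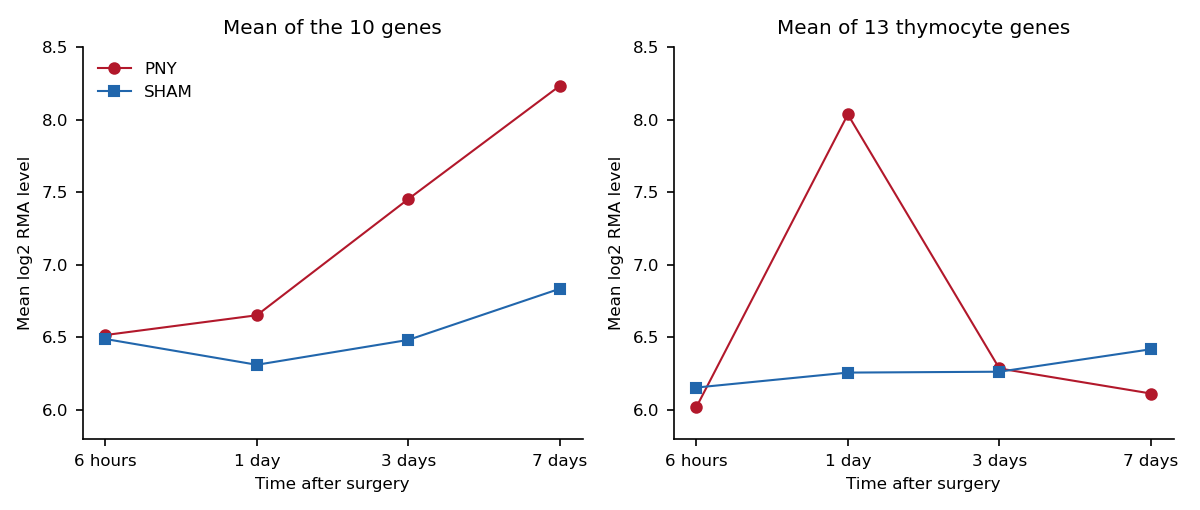
Mean log2 RMA level (vertical axis) over the 10 genes (left) and over 13 thymocyte genes (right) at the 4 time points, 1 array per point, PNY as red circles and SHAM as blue squares. The thymocyte mean is 8.04 on the PNY array of 1 day and between 6.02 and 6.42 on the others, while the mean of the 10 genes reaches 8.23 on the PNY array of 7 days.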

How the data were processed

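RNA of lung tissue pooled from 8 mice was hybridised by the authors to 1 array per surgery and time point. The deposited values are log2 expression values: the authors background-corrected, quantile-normalized and summarized the scans with RMA in BioConductor (version not given in the sources used here). The log base is not written with them; their range, 2.0 to 14.82, is that of log2 values. Array medians were 5.90 to 5.95. Of 45101 probe sets, 64 controls were left out; 34945 have 1 symbol, 932 several and 9160 none, and symbols are those of GEO's platform annotation. Depth has no meaning for arrays: the number of arrays, 8, limits precision.

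Rank products were recomputed in Python 3.11.15 with 1000 permutations within arrays (100 in alternatives), and limma 3.58.1 was run in R 4.3.3. Both were tested on simulated data. The changes added there were larger than the mean differences of the 10 genes, so performance at the latter was not tested. Comparisons at single time points have no test. The same time point pairs PNY and SHAM arrays: deviations from the group means correlated at 0.60, 0.36, 0.30 and 0.30 over probe sets, and the 7-day PNY array with the 3-day SHAM array at 0.34. The 10 genes, all lists and the split into earlier and later times were chosen with earlier results of these data known. P-values are therefore descriptions of these arrays. Text names the 10 genes, Mki67, the 4 largest mean differences of each list and the 8 most alike genes, and of cell types only defining markers. Alternatives were another normalization, filter, probe set, threshold or test, and leaving out arrays. Proteins and the windows of Aurkb, Pbk and Incenp were not analysed here.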

Additional observations from a re-analysis of the deposited data

How the results depend on the processing

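All 10 genes kept a positive mean difference in every fit with an array, or both arrays of a time, removed, with the median between 0.27 and 0.87 (0.63 with all arrays), while the number called higher, 7 of 10, ran from 1 to 9. Time point as the replicate block in rank products (4 pairs) called 7, as did a further quantile normalization and no minimum fold. Centring each array also gave 7. It cannot change the ranks within a pair of arrays and shifted the PNY minus SHAM mean by only -0.0013, so it is a weak check. Averaging a gene's probe sets called 6, without Aurka, and 5 of the 8 genes above the median level were called when the others were left out. A percentage of false positives under 0.05 called 2, and limma 0, without and with the replicate block. Of single probe sets, the second of Aurka read -0.044 and 2 of Incenp -0.057 and -0.011. With probe sets averaged, the genes past 1.5-fold were 6 at 3 days and 9 at 7 days, in place of 9 and 10. At a fold of 2 the genes past it were 0 at 1 day, 4 at 3 days and 8 at 7 days. The later minus earlier contrast gave 0 of the 10 at an adjusted p of 0.05 under every alternative; leave-out fits gave 2 to 8 at an unadjusted limma p under 0.05 upward, where 0.515% to 4.17% of all probe sets had one, and the replicate block 9 (3.25%), with a smallest adjusted p of 0.891. The cause of these shifts was not tested. One array per surgery and time point, of pooled mice, limits every value: no spread between animals was measured.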
